A study of Mus musculus with 16 samples.

Results

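The 10 long noncoding RNA genes described here were measured in mouse liver 12 h after partial hepatectomy or a sham operation, with and without the fatty acid receptor PPARα in hepatocytes. They are the small nucleolar RNA (snoRNA) host genes Snhg11, Snhg1, Snhg3, Snhg5, Snhg6, Snhg8, Snhg12 and Gas5, and the nuclear RNAs Neat1 and Malat1. The set was put together with results of these arrays known, and Snhg11 leads it because it was selected on its measured difference between the genotypes. A member was represented by the probe set whose annotated symbol is that gene, and each of the 10 had 1 probe set. For Snhg11, Snhg5, Snhg6, Neat1 and Malat1 that probe set carries 1 symbol, so 5 of the 10 members are among the 30142 genes measured by name. The other 5 members sit on probe sets whose annotation also lists small RNA genes, so their values cannot be given to the host: Snord22 with Snhg1, Snora73a with Snhg3, Snora24 with Snhg8, Snora44, Snora61 and Snord99 with Snhg12, and Mir5117 and Snord47 with Gas5.

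Total RNA of whole liver was hybridised to Affymetrix arrays, 16 in all, in 4 groups of 4. The wild type was Ppara fl/fl, whose Ppara gene carries loxP sites and is intact, and the mutant was PparaΔHep, in which PPARα was disrupted in hepatocytes, so that other liver cells keep the gene. Both genotypes were taken 12 h after a sham operation or after partial hepatectomy (PHx), the removal of part of the liver. Strain, sex, age and the Cre line were not stated in the labels, and each array's title carries a number of its own that no label explains, so that it is not stated whether each array is a separate animal. The p-values therefore rest on the spread among these arrays, some of which may be technical. Values are log2 levels, on which a step of 1 is a doubling.

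Partial hepatectomy sends the remaining hepatocytes into growth and division, with a large rise in ribosome production. snoRNA host genes are spliced into a noncoding transcript while the snoRNAs, which guide the chemical modification of ribosomal RNA, are cut out of the introns. Many host transcripts begin with a run of pyrimidines, as the mRNAs of ribosomal proteins do, and many of the spliced host RNAs are short-lived because nonsense-mediated decay removes them. Neat1 is the RNA scaffold of paraspeckles, nuclear bodies built around the proteins SFPQ, NONO and PSPC1, and Malat1 is a very abundant RNA held in nuclear speckles beside the splicing machinery. Snhg11 is best known from neurons.

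Sequence around the transcription start is shown for the members with a RefSeq start region. It was searched for the PPAR response element, and the pyrimidine run of host transcripts is read there. Elements outside the start region were not searched, so a missing match says nothing about control by PPARα. A start region was given for 3 of the 5 named members and none for Snhg6 and Neat1. Lower case letters lie before the annotated start and the 50 capitals follow it, 5′ to 3′.
Snhg11 (GRCm38.p6, chr2:158375463-158375762, plus strand): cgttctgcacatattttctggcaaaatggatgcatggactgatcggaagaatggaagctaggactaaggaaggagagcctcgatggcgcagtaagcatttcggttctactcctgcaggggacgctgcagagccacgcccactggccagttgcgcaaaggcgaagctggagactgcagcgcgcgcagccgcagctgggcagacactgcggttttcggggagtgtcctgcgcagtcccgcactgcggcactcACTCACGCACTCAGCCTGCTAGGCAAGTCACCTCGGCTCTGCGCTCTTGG
Snhg5 (GRCm38.p6, chr9:88522848-88522947, minus strand): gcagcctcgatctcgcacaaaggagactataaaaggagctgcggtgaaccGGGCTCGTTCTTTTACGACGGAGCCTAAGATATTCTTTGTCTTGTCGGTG
Malat1 (GRCm38.p6, chr19:5802623-5802722, minus strand): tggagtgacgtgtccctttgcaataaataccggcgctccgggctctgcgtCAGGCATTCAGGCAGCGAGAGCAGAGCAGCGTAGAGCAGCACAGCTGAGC
The longest run of C and T in the first 20 transcribed bases was TTCTTTT, 7 bases, in Snhg5, a length that 11.1% of the 32851 start regions reached or passed. In Snhg11 and Malat1 the longest run was 3 bases (CTC and TTC), a length found in 76.8% of regions. None of these runs began at the annotated start, and the transcribed bases of Snhg5 began with GGGCTCG. The PPAR response element, searched as AGGTCANAGGTCA on both strands of the whole 300-base region from 250 bases before to 50 after the start, had no match in the 3 regions and is in 0.0396% of all regions. Its half-site AGGTCA, which overlaps it, had none either, against 16.3% of regions, nor did the E-box CACGTG (7.15%) or the cAMP response element TGACGTCA (1.79%). TATAAA, found in 13.6% of regions, had 1 match, in Snhg5 from 23 bases before the start. GC content was 60.0% in Snhg11, 62.0% in Snhg5 and 47.0% in Malat1, beside a median of 52.7%, with 21, 36 and 10 CpG dinucleotides beside a median of 7. These matches describe letters and were not tested as sites.

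Neat1 and Malat1 stood clear of the negative control probe sets, and the 3 host genes did not. Both nuclear RNAs lay above the 95th percentile of the negative controls of their own array on all 16 arrays, while Snhg11, Snhg5 and Snhg6 lay below it on all 16. That percentile ran from 4.768 to 5.36 over the arrays, and the median negative control from 1.807 to 2.124. The host genes were thus in a range that part of the negative controls reach, where fold changes can be understated, and calling them abundant is not borne out by these values. Levels of whole classes of probe sets moved with the operation. Array medians over all probe sets were 2.045 ± 0.02 after sham and 2.174 ± 0.023 after PHx (SD, n = 8 arrays each), the negative controls had medians of 1.939 ± 0.065 and 2.022 ± 0.069, and the positive controls 5.947 ± 0.086 and 5.586 ± 0.118. Other control probe sets were lower after PHx. Those of the antigenomic background had 1.245 ± 0.032 and 1.015 ± 0.036, and the ERCC controls 1.804 ± 0.054 and 1.604 ± 0.068. The part of these shifts in the PHx differences was not tested beyond the other scalings named beside each result. Ppara itself was 6.81 ± 0.26 in fl/fl and 6.30 ± 0.18 in PparaΔHep after sham, and 6.49 ± 0.74 and 5.32 ± 0.67 after PHx (SD, n = 4), and its genotype differences of −0.50 ± 0.33 and −1.17 ± 0.33 (SE) did not pass limma's test (adjusted p = 0.681 and 0.326). Which exon the Ppara probes cover is not given, so this level is a weak check of the labels. Cyp4a14, a classical PPARα target, was lower in PparaΔHep by a log2 mean genotype difference of −4.32 ± 0.78 (SE, adjusted p = 0.0349). It did not pass after sham alone (−4.2 ± 1.11, adjusted p = 0.383) or after PHx alone (−4.45 ± 1.11, adjusted p = 0.214), and its PHx groups overlapped. Pdk4 and Acot1, the other targets checked, were not lower on the mean genotype difference (0.52 ± 0.42 and 0.22 ± 0.18, limma adjusted p = 0.975 and 0.976). After sham they were higher in PparaΔHep, by 1.45 ± 0.59 and 1.12 ± 0.26, and did not pass (adjusted p = 0.491 and 0.337). After PHx they were at −0.42 ± 0.59 and −0.68 ± 0.26 (adjusted p = 0.917 and 0.555). Hepatocyte markers had array means of 10.41 to 10.64 over the 16 arrays, as the liver label says.

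**Figure D1:**
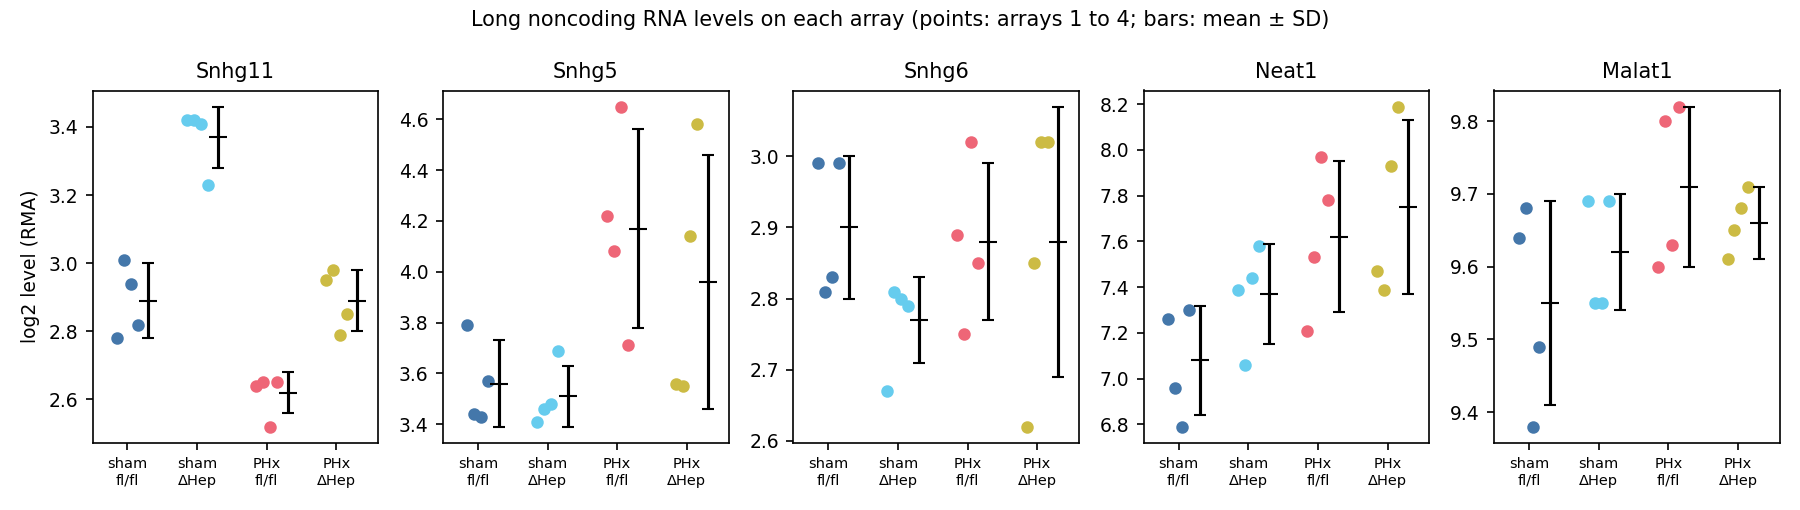
Log2 level (vertical axis, RMA values, a separate scale for each gene) of the 5 members with a probe set of their own on each array; points are arrays 1 to 4 of a group and the bar beside them is mean ± SD. Snhg11 lies highest in sham PparaΔHep (3.23 to 3.42) and lowest in PHx fl/fl (2.52 to 2.65), while the Snhg5 and Neat1 groups overlap.

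Snhg11 was higher in PparaΔHep than in fl/fl liver after either operation and lower after PHx than after sham in either genotype. In sham fl/fl its log2 level was 2.78, 3.01, 2.94 and 2.82 on arrays 1 to 4 (mean 2.89 ± 0.11, SD). In sham PparaΔHep it was 3.42, 3.42, 3.41 and 3.23 (3.37 ± 0.09). Every array of the mutant sham group stood above every array of the other 3 groups. After PHx it was 2.64, 2.65, 2.52 and 2.65 in fl/fl (2.62 ± 0.06) and 2.95, 2.98, 2.79 and 2.85 in PparaΔHep (2.89 ± 0.09). From the bottom, the order of group means was PHx fl/fl, then sham fl/fl and PHx PparaΔHep with the same mean and overlapping arrays, then sham PparaΔHep. The genotype difference was 0.48 ± 0.06 after sham (SE of the model over all 16 arrays), 1.40-fold, and 0.28 ± 0.06 after PHx, 1.21-fold. The PHx difference was −0.27 ± 0.06 in fl/fl and −0.48 ± 0.06 in PparaΔHep, and the mutant's PHx difference minus that of fl/fl was −0.21 ± 0.09. Of all genes, 2.38% were higher in the mutant without overlap after sham and 2.41% after PHx, and 19.9% and 16.2% were lower after PHx without overlap in fl/fl and PparaΔHep. No p is given for Snhg11, since its genotype difference is what chose it, and nothing is read from these shares.

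With 1 array left out at a time, the Snhg11 genotype difference stayed between 0.45 and 0.53 after sham and between 0.25 and 0.31 after PHx. Snhg11 was chosen on this difference, so these ranges only describe it and are no support for it. The PHx difference in fl/fl was −0.38 with array medians subtracted, −0.41 with quantile normalization and −0.43 with the mean of the negative controls subtracted. With cyclic loess it was −0.23, below the −0.27 of the deposited values in size, and the sign was the same in each. The PHx difference in PparaΔHep, −0.48 on the deposited values, was −0.63 with array medians subtracted and −0.65 with quantile normalization. The lowest array stands apart in both the sham PparaΔHep group (3.23) and the PHx fl/fl group (2.52).

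Genes near Snhg11 on chromosome 2 differed among themselves, and Lbp fell after PHx as Snhg11 did. Gm25129, a snoRNA gene annotated inside Snhg11, had a probe set of its own, and its levels were 3.06, 2.70, 2.99 and 2.86 in sham fl/fl, 2.76, 2.79, 2.61 and 2.67 in the mutant after sham, 2.97, 2.73, 2.85 and 2.94 in PHx fl/fl, and 3.08, 3.21, 3.12 and 3.32 in the mutant after PHx. It was high in the mutant after PHx, above all other arrays, where Snhg11 was in the middle of its range. Its PHx difference was −0.03 ± 0.08 in fl/fl (SE, limma adjusted p = 0.790) and 0.47 ± 0.08 in PparaΔHep (adjusted p = 0.000467), and the difference between these did not pass (0.50 ± 0.11, adjusted p = 0.301). Gm25129 also lay below the 95th percentile of negative controls. A second snoRNA gene annotated inside Snhg11, LOC115489592, had no probe set of its own symbol. The nearest protein-coding gene on one side was Lbp, the lipopolysaccharide-binding protein of the acute phase, which fell after PHx, at −0.96 ± 0.16 in fl/fl (adjusted p = 0.000499) and −1.08 ± 0.16 in PparaΔHep (adjusted p = 0.000165). Lbp did not pass between genotypes after sham (0.19 ± 0.16, adjusted p = 0.750) or after PHx (0.07 ± 0.16, adjusted p = 0.961). On the other side lay Ralgapb, a subunit of the Ral GTPase-activating complex, which passed in neither genotype after PHx (0.20 ± 0.08, adjusted p = 0.0819, and 0.01 ± 0.08, adjusted p = 0.972).

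Of the 4 other members with a probe set of their own, 2 rose after PHx in fl/fl liver, Snhg5 and Neat1, and none fell, where 32.7% of all genes passed and 11.9% rose. Among the 3169 genes annotated as long noncoding, 20.0% passed. In PparaΔHep none of the 4 passed limma's test after PHx (0 also at an unadjusted p below 0.05), where 32.3% of all genes and 25.6% of long noncoding genes passed. None of the 4 passed between genotypes after sham or after PHx (0.0133% and 0.143% of all genes), on the mean of both (0.219%), or in the difference between the genotypes' PHx changes (0.0%, that is 0 genes by limma, with 3400 at an unadjusted p below 0.05), and in none of these comparisons was any of the 4 at an unadjusted p below 0.05. A call in one genotype and not in the other is therefore no shown difference between them. The share of the genes called in fl/fl that rose was 36.5% on the deposited values, 41.7% with cyclic loess, 14.8% with array medians subtracted, 15.8% with quantile normalization and 10.9% with negative controls subtracted. In PparaΔHep it was 45.8%, 45.3%, 13.9%, 19.7% and 26.1% in that order. The median log2 difference of all genes, −0.04 in fl/fl and 0.01 in PparaΔHep, moved to −0.15 and −0.14 with array medians subtracted, to −0.14 and −0.10 with quantile normalization and to −0.20 and −0.08 with negative controls subtracted.

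**Figure D2:**
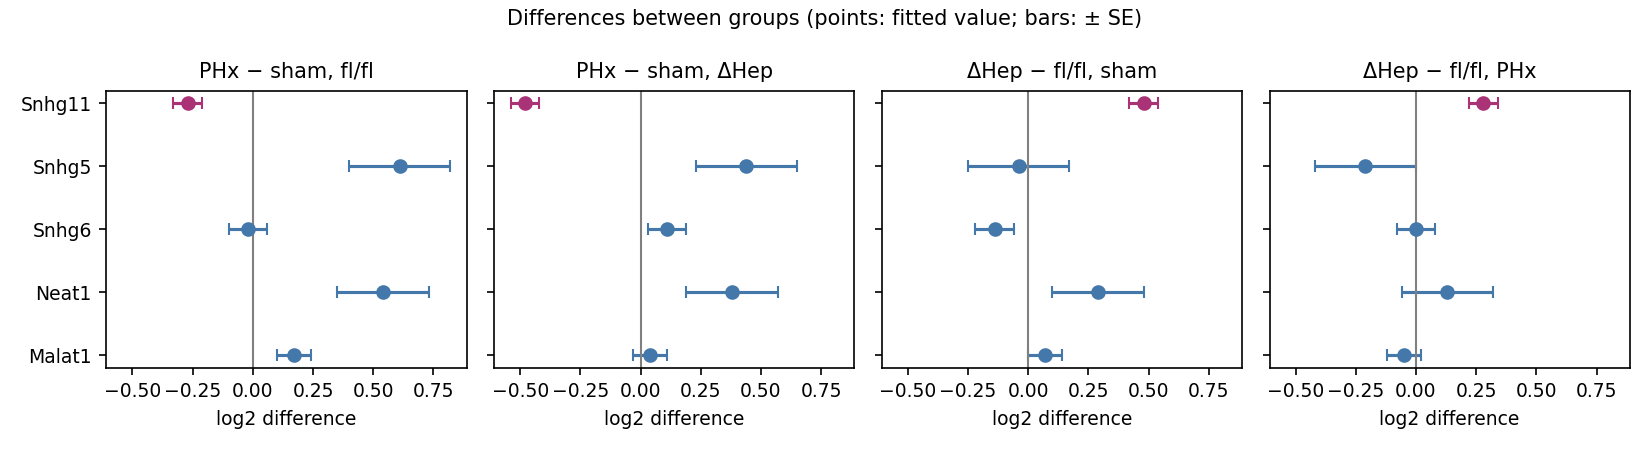
Log2 difference (horizontal axis) of each of the 5 members in 4 comparisons, PHx minus sham in each genotype and PparaΔHep minus fl/fl after each operation; points are fitted values, bars ± SE, and Snhg11, whose genotype difference chose it, is in another colour. Snhg11 lies left of 0 after PHx and right of 0 between genotypes, and Snhg5 (0.61) and Neat1 (0.54) lie farthest right after PHx in fl/fl.

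Snhg5, host of the box C/D snoRNAs of the U50 family, had the largest PHx difference of the members in fl/fl on the deposited values. Its log2 level was 3.79, 3.44, 3.43 and 3.57 in sham fl/fl (3.56 ± 0.17, SD) and 4.22, 4.08, 4.65 and 3.71 in PHx fl/fl (4.17 ± 0.39). PHx arrays 1, 2 and 3 were above all 4 sham arrays, and array 4 fell among them. In PparaΔHep the levels were 3.41, 3.46, 3.48 and 3.69 after sham (3.51 ± 0.12) and 3.56, 3.55, 4.14 and 4.58 after PHx (3.96 ± 0.50), with PHx arrays 1 and 2 inside the sham range. The PHx difference was 0.61 ± 0.21 in fl/fl, 1.53-fold (SE, limma adjusted p = 0.0400), and 0.44 ± 0.21 in PparaΔHep (adjusted p = 0.128). A two-sided exact permutation test of the fl/fl difference gave p = 0.0571, where 4 arrays against 4 allow no p below 0.0286. The difference between genotypes in this change was −0.17 ± 0.30 (adjusted p = 0.882), and the genotype differences were −0.04 ± 0.21 after sham (adjusted p = 0.972) and −0.21 ± 0.21 after PHx (adjusted p = 0.875). The fl/fl call was lost with array medians subtracted (0.50, adjusted p = 0.0542) and quantile normalization (0.49, adjusted p = 0.0789), and over all probe sets (adjusted p = 0.0512). It was also lost without any 1 of 7 arrays (sham fl/fl 2, 3 or 4, sham PparaΔHep 2, PHx fl/fl 1, 2 or 3), with values of 0.45 to 0.76 and adjusted p of 0.0148 to 0.124 over all 16 omissions. The 2 snoRNA genes annotated inside Snhg5 had no probe set of their own symbol. Its protein-coding neighbour Syncrip, an RNA-binding protein, had PHx differences of −0.05 ± 0.11 and 0.08 ± 0.11 in fl/fl and PparaΔHep.

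Neat1 came next to Snhg5 in the size of its PHx difference in fl/fl. Its log2 level was 7.26, 6.96, 6.79 and 7.30 in sham fl/fl (7.08 ± 0.24, SD) and 7.21, 7.53, 7.97 and 7.78 in PHx fl/fl (7.62 ± 0.33). Array 1 of the PHx group fell inside the sham range and the other 3 were above it. In PparaΔHep it was 7.39, 7.06, 7.44 and 7.58 after sham (7.37 ± 0.22) and 7.47, 7.39, 7.93 and 8.19 after PHx (7.75 ± 0.38), again with overlap. The PHx difference was 0.54 ± 0.19 in fl/fl, 1.45-fold (SE, limma adjusted p = 0.0440, exact permutation p = 0.0857), and 0.38 ± 0.19 in PparaΔHep, 1.30-fold (adjusted p = 0.153). The genotype differences were 0.29 ± 0.19 after sham (adjusted p = 0.683) and 0.13 ± 0.19 after PHx (adjusted p = 0.929), and the difference of the PHx changes was −0.16 ± 0.27 (adjusted p = 0.869). The fl/fl call was lost with array medians subtracted (0.43, adjusted p = 0.067), quantile normalization (0.34, adjusted p = 0.146) and negative controls subtracted (0.38, adjusted p = 0.0571). It was lost too with array weights (0.47, adjusted p = 0.0621) and over all probe sets (adjusted p = 0.0562). Leaving out any 1 of 7 arrays (sham fl/fl 2 or 3, sham PparaΔHep 1 or 3, PHx fl/fl 2, 3 or 4) also ended it, with values of 0.42 to 0.68 and adjusted p of 0.0187 to 0.13 over all 16 omissions. In the ranking of all genes by their PHx difference, 96.1% lay below Snhg5 and 95.4% below Neat1 in fl/fl, and 93.6% and 92.1% in PparaΔHep.

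Malat1, which lies beside Neat1 on chromosome 19, stayed within a narrow range. Its log2 level was 9.64, 9.68, 9.38 and 9.49 in sham fl/fl (9.55 ± 0.14, SD), 9.69, 9.55, 9.55 and 9.69 in the mutant after sham (9.62 ± 0.08), 9.60, 9.80, 9.63 and 9.82 in PHx fl/fl (9.71 ± 0.11) and 9.61, 9.65, 9.68 and 9.71 in the mutant after PHx (9.66 ± 0.05). All 4 groups overlapped. The PHx difference was 0.17 ± 0.07 in fl/fl (SE, limma adjusted p = 0.0839) and 0.04 ± 0.07 in PparaΔHep (adjusted p = 0.681). In fl/fl it passed with cyclic loess (0.23, adjusted p = 0.0393) and without sham fl/fl array 2 (0.21, adjusted p = 0.0444), and in PparaΔHep it changed sign with array medians subtracted (−0.11). The genotype differences were 0.07 ± 0.07 after sham (adjusted p = 0.800) and −0.05 ± 0.07 after PHx (adjusted p = 0.912). Frmd8, the protein-coding neighbour of both Neat1 and Malat1, fell after PHx in fl/fl, at −0.18 ± 0.05 (adjusted p = 0.0124), a call lost with cyclic loess (−0.10, adjusted p = 0.121) and when only the 2 groups compared were fitted (adjusted p = 0.0516). Its PHx difference in PparaΔHep, −0.09 ± 0.05, did not pass (adjusted p = 0.174), nor did the difference of the PHx changes (0.09 ± 0.07, adjusted p = 0.678). The small Mascrna cut from the end of Malat1 had no probe set of its own symbol.

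Snhg6, host of the box C/D snoRNA Snord87, passed in no comparison, while its snoRNA fell after PHx. Its log2 level was 2.99, 2.81, 2.83 and 2.99 in sham fl/fl, 2.67, 2.81, 2.80 and 2.79 in the mutant after sham, 2.89, 2.75, 3.02 and 2.85 in PHx fl/fl and 2.62, 2.85, 3.02 and 3.02 in the mutant after PHx. All groups overlapped, and the PHx differences were −0.02 ± 0.08 in fl/fl (SE, limma adjusted p = 0.868) and 0.11 ± 0.08 in PparaΔHep (adjusted p = 0.350). Subtracting the negative controls gave −0.18 in fl/fl (adjusted p = 0.0426). Snord87 was 7.88, 7.86, 8.10 and 8.22 in sham fl/fl (8.02 ± 0.18, SD) and 7.37, 7.29, 7.36 and 7.58 in PHx fl/fl (7.40 ± 0.13). In PparaΔHep it was 7.84, 7.89, 7.94 and 7.74 after sham (7.85 ± 0.08) and 7.25, 7.71, 7.43 and 7.30 after PHx (7.42 ± 0.21). No PHx array reached the sham range in either genotype. Snord87 fell, at −0.61 ± 0.10 in fl/fl (adjusted p = 0.000482) and −0.43 ± 0.10 in PparaΔHep (adjusted p = 0.00549), and between −0.67 and −0.54, and −0.53 and −0.37, with 1 array left out. How the changes of Snord87 and Snhg6 compare was not tested, since Snhg6 lay within the range of the negative controls. Neither gene's genotype differences passed, and those of Snord87 were −0.16 ± 0.10 after sham (adjusted p = 0.668) and 0.02 ± 0.10 after PHx (adjusted p = 0.983). Mcmdc2, a protein-coding gene that overlaps Snhg6, had PHx differences of 0.04 ± 0.04 and −0.01 ± 0.04.

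**Figure D3:**
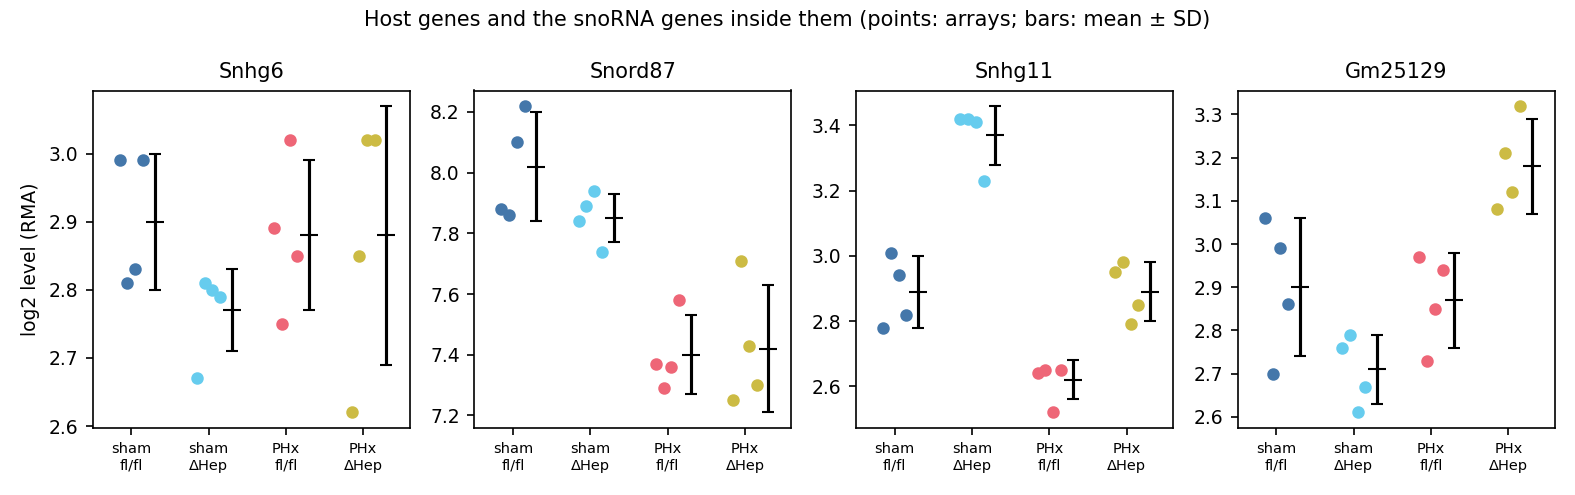
Log2 level (vertical axis, a separate scale for each gene) of the host genes Snhg6 and Snhg11 and of the snoRNA genes annotated inside them, Snord87 and Gm25129, on each array; points are arrays and bars mean ± SD of a group. Snord87 lies lower after PHx (7.25 to 7.71) than after sham (7.74 to 8.22), and Gm25129 lies highest in PHx PparaΔHep (3.08 to 3.32).

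The 5 probe sets shared between a host and the small RNAs inside it had array values between 2.37 and 5.37. In a limma fit over all probe sets, none of the 5 passed after PHx in either genotype, where 25.6% of probe sets passed in each, or between genotypes after sham (0.00138%) or after PHx (0.0633%). At an unadjusted p below 0.05, 1 of the 5 was counted after PHx in each genotype and 0 between genotypes. After PHx their log2 differences ran from −0.16 to 0.30 in fl/fl (smallest adjusted p = 0.117) and from −0.17 to 0.36 in PparaΔHep (smallest adjusted p = 0.0579). Between genotypes they ran from −0.17 to 0.03 after sham (smallest adjusted p = 0.767) and from −0.15 to 0.02 after PHx (smallest adjusted p = 0.839). These values are of the probe sets and cannot be divided between Snhg1, Snhg3, Snhg8, Snhg12 or Gas5 and their small RNAs.

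Other genes of the same kinds came from lists chosen with results of these arrays known, so their counts are descriptions. Over all 30142 genes, 3597 rose and 6271 fell after PHx in fl/fl, and 4461 rose and 5273 fell in PparaΔHep. Of 17 other snoRNA host genes 7 were measured by name, and 2 rose in fl/fl and 1 in PparaΔHep, with none falling. The 17 include the protein-coding hosts Gnl3, Eif4a2, Hspa8 and Nop56, so the counts and median may mix coding and noncoding hosts. Nop56 is also in the list of snoRNA particle proteins below. Snhg15 rose by 0.45 ± 0.11 in PparaΔHep (SE, limma adjusted p = 0.00623), and by 0.35 ± 0.11 in fl/fl (adjusted p = 0.0245), where Snhg17 rose by 0.29 ± 0.11 (adjusted p = 0.0465). In PparaΔHep Snhg17 was at 0.20 ± 0.11 (adjusted p = 0.156). The fl/fl call of Snhg17 was lost over all probe sets, when only the 2 groups compared were fitted and with array weights. Both host genes' fl/fl calls were lost with array medians subtracted (0.25 and 0.18), quantile normalization (0.22 and 0.15) and negative controls subtracted (0.2 and 0.13). Without PHx fl/fl array 3 both were lost too (0.27, adjusted p = 0.0778, and 0.20, adjusted p = 0.144), and the Snhg15 call also without sham fl/fl 2, 3 or 4 (0.33 to 0.34), the Snhg17 call without any of 9 arrays (sham fl/fl 2, 3 or 4, sham PparaΔHep 1 or 4, PHx fl/fl 1 or 3, PHx PparaΔHep 2 or 3). The list's median difference was 0.08 in fl/fl and 0.06 in PparaΔHep, beside −0.04 and 0.01 over all genes. Of 12 measured proteins of box C/D and H/ACA snoRNA particles none passed in fl/fl and 2 rose in PparaΔHep, the box C/D core protein gene Nop58 by 1.04 ± 0.29 (adjusted p = 0.0132) and the H/ACA core protein gene Nhp2 by 0.42 ± 0.10 (adjusted p = 0.00681). In fl/fl their differences were 0.72 ± 0.29 (adjusted p = 0.0705) and 0.27 ± 0.10 (adjusted p = 0.0572). Of 9 measured factors of nonsense-mediated decay 1 fell in fl/fl and 5 in PparaΔHep, and none rose. Upf2, a core factor, fell, at −0.47 ± 0.13 (adjusted p = 0.0119) and −0.49 ± 0.13 (adjusted p = 0.00954). Upf1, the helicase of that pathway, fell, at −0.52 ± 0.16 in PparaΔHep (adjusted p = 0.0213), a call lost with cyclic loess (−0.36) and when only the 2 groups compared were fitted, and was at −0.25 ± 0.16 in fl/fl (adjusted p = 0.244).

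Among the partners of Neat1, 17 of 21 paraspeckle proteins were measured. In fl/fl 1 rose and 4 fell, and in PparaΔHep 1 rose and 7 fell, with medians of −0.12 and −0.11 that changed sign with cyclic loess (0.02 and 0.05). For comparison, 3597 of all 30142 genes rose and 6271 fell in fl/fl, and 4461 rose and 5273 fell in PparaΔHep. The riser in both was Pspc1, a core paraspeckle protein gene, by 0.71 ± 0.08 in fl/fl (SE, limma adjusted p = 2.16e-05) and 0.45 ± 0.08 in PparaΔHep (adjusted p = 0.00111). Tardbp, which encodes the RNA-binding protein TDP-43, fell, at −0.64 ± 0.14 (adjusted p = 0.0035) and −0.69 ± 0.14 (adjusted p = 0.00189). Fam98a fell, at −0.75 ± 0.14 in PparaΔHep (adjusted p = 0.000906) and −0.42 ± 0.14 in fl/fl (adjusted p = 0.0296), the latter lost with cyclic loess (−0.29) and without sham fl/fl 2 or 4 or PHx fl/fl 2 or 3 (−0.40 to −0.36). Of 14 measured nuclear speckle and splicing factors, the partners of Malat1, 1 fell in each genotype, the splicing factor gene Srsf6, at −0.20 ± 0.07 in fl/fl (adjusted p = 0.0378) and −0.31 ± 0.07 in PparaΔHep (adjusted p = 0.00286). Both Srsf6 calls were lost with cyclic loess (−0.06 and −0.15), and the fl/fl call without any 1 of 6 arrays (sham fl/fl 1 or 4 or any PHx fl/fl array), with adjusted p up to 0.119 without sham fl/fl 1. Its fl/fl call was also lost over all probe sets (limma adjusted p = 0.0524) and with trended robust eBayes (adjusted p = 0.0641). Of 18 measured long noncoding RNAs outside the set, 1 rose and 4 fell in fl/fl and 2 rose and 6 fell in PparaΔHep. Rmrp, the RNA of the nuclease RNase MRP that cuts ribosomal RNA precursors, fell, at −1.20 ± 0.16 (adjusted p = 6.1e-05) and −1.26 ± 0.16 (adjusted p = 3.31e-05), the largest falls of that list. Tug1 fell in both genotypes, at −0.46 ± 0.10 in fl/fl (adjusted p = 0.00276) and −0.52 ± 0.10 in PparaΔHep (adjusted p = 0.00102). Rpph1, the RNA of RNase P, also fell in both, at −0.58 ± 0.16 (adjusted p = 0.0116) and −0.48 ± 0.16 (adjusted p = 0.0283). Its call in PparaΔHep was lost with cyclic loess (−0.39), when only the 2 groups compared were fitted, and without any 1 of 6 arrays (sham PparaΔHep 2, 3 or 4, PHx PparaΔHep 1, 3 or 4), with adjusted p up to 0.0827. No member of these lists passed between genotypes with limma, nor did any in the difference of the PHx changes.

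Glucocorticoid receptor genes were included because surgery raises stress hormones and Gas5 is known to bind that receptor. All 10 were measured, and 2 rose and 2 fell in each genotype. Among all 30142 genes, 3597 rose and 6271 fell in fl/fl, and 4461 rose and 5273 fell in PparaΔHep. The clock gene Per1 rose by 1.01 ± 0.19 in fl/fl (SE, limma adjusted p = 0.00131) and 0.79 ± 0.19 in PparaΔHep (adjusted p = 0.00596). The target Fkbp5, a co-chaperone of the receptor, rose by 0.76 ± 0.24 (adjusted p = 0.0245) and 0.68 ± 0.24 (adjusted p = 0.0413). The fl/fl call of Fkbp5 was lost when only the 2 groups compared were fitted and without sham fl/fl 2 or 3 or PHx fl/fl 2 or 3 (0.57 to 0.67), and the PparaΔHep call with array medians subtracted (0.53), over all probe sets, and without any sham PparaΔHep array or PHx PparaΔHep 2, 3 or 4 (0.57 to 0.72). The receptor gene Nr3c1 fell, at −0.65 ± 0.11 (adjusted p = 0.000571) and −0.73 ± 0.11 (adjusted p = 0.000206), and the target Tsc22d3 also fell, at −0.86 ± 0.23 (adjusted p = 0.0099) and −0.82 ± 0.23 (adjusted p = 0.0127).

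Markers of several liver cell types moved with the operation, and their part in the members' PHx differences was not tested. In whole liver, fewer cells of a type and less RNA per cell cannot be told apart. Beside the counts below, 3597 of all 30142 genes rose and 6271 fell in fl/fl, and 4461 rose and 5273 fell in PparaΔHep. Of 12 Kupffer cell markers 1 rose and 5 fell in fl/fl and 8 fell in PparaΔHep, and the array means of the list were 5.05 to 5.58 and 5.25 to 5.68 after sham (fl/fl and PparaΔHep), 4.77 to 5.13 and 4.71 to 5.16 after PHx. Of 10 markers of sinusoidal endothelial cells 1 rose and 6 fell in each genotype, with array means of 5.27 to 5.41 and 5.24 to 5.36 after sham and 5.0 to 5.24 and 4.93 to 5.09 after PHx. Stellate cell markers had 4 of 10 lower in fl/fl and 3 in PparaΔHep, and hepatocyte markers 4 and 3 of 11. Neutrophil markers had array means of 2.67 to 3.11 in fl/fl and 2.64 to 2.69 in PparaΔHep after sham, and 2.59 to 3.62 and 2.78 to 2.94 after PHx. Neuron and neuroendocrine markers, listed because of Snhg11, had array means of 2.23 to 2.34 and 2.16 to 2.25 after sham and 2.07 to 2.15 and 2.18 to 2.23 after PHx, near the median of the negative controls. No marker of these lists passed between genotypes with limma.

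The genes most like each member were taken as those with the highest Pearson correlation over the 16 arrays among genes with a mean of at least 3. These correlations hold the group differences and any shift shared by an array, and are descriptions. For Snhg11 they were Uap1l1 (r = 0.894), Ttc39a (0.893), Larp4b (0.89), Fnbp1 (0.889) and Thnsl2 (0.874). With each group's mean taken out, none of these was among its first 5, which were Tmtc4 (r = 0.865), Gna14 (0.862), Ano10 (0.86), Itga7 (0.855) and Clec7a (0.849). For Snhg5 they were Tead1 and Gnl2 (both r = 0.943), Eif2b3 (0.933), Ctps (0.931) and Rrp12 (0.93). Gnl2 and Rrp12 are ribosome assembly factors, but with each group's mean taken out neither was among the first 5 of Snhg5. Those were Galnt2 (r = 0.968), Tomm34 (0.946), Foxj3 (0.942), Osmr (0.937) and Ddx24 (0.936). Neat1 was most like Slc25a51 (r = 0.889), Gm4899 (0.876), Rnf4 (0.874), Trak2 (0.871) and Coq10b (0.869), and Slc25a51, the mitochondrial NAD carrier gene, was also first within groups (r = 0.9). Snhg6 was most like Fcf1, a small-subunit processome gene, over all arrays (r = 0.848) and within groups (r = 0.897). Malat1 had lower values, led by the casein kinase gene Csnk1a1 (r = 0.815).

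**Figure D4:**
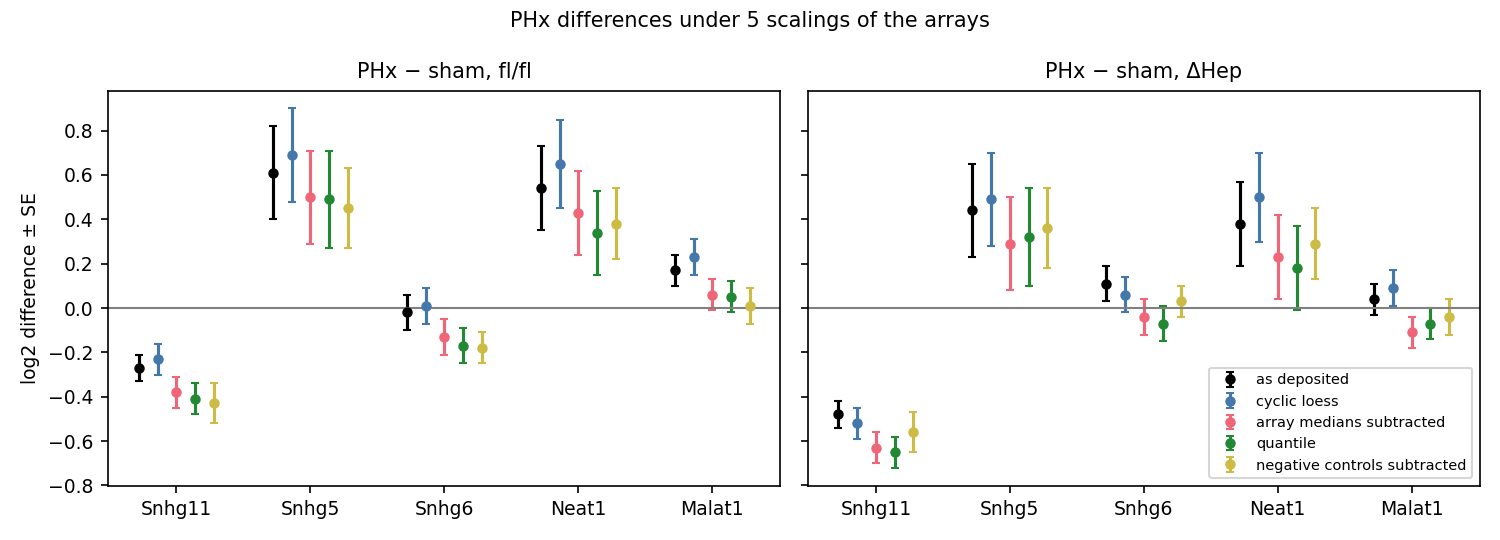
Log2 PHx difference (vertical axis) of the 5 members in fl/fl (left) and PparaΔHep (right) on the deposited values and under 4 other scalings of the arrays; points are fitted values and bars ± SE. Snhg11 stays below 0 and Snhg5 and Neat1 stay above 0 under all 5, while Snhg6 and Malat1 cross 0 in PparaΔHep.

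Under the 5 scalings plotted, Snhg11 stayed lower after PHx and Snhg5 and Neat1 stayed higher in both genotypes. Snhg6 changed sign in fl/fl with cyclic loess (0.01) and in PparaΔHep with array medians subtracted (−0.04) and quantile normalization (−0.07).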

How the data were processed

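Each array gave 1 log2 value per probe set, made by the authors with RMA, per the submitters' processing notes; its version, the software and the genome build: not given in the sources used here. RMA corrects background, normalizes between arrays and summarises probes on the log2 scale. The authors' table holds 72688 probe sets, of which 30604 have 1 symbol, 2146 several and 39938 none in the annotation used. Symbols were updated through a RefSeq gene table (827 changed), and the probe set with the highest mean stood for a gene. The model was limma 3.58.1 in R 4.3.3 (data.table, version 1.17.8), with 1 mean per group over 16 arrays, 12 residual degrees of freedom, default eBayes and Benjamini-Hochberg adjustment over 30142 genes, with calls at adjusted p below 0.05. The script was tested on simulated data. Arrays carry numbers in sample order that pair nothing.

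The members and lists were chosen with earlier results of these data known. Named genes were the members, their neighbours and nested genes (whose strand was not checked), the most correlated genes, and of each list the members passing with the 2 largest rises and falls after PHx, of which some are given only in the counts. Control probe sets were recognised from their identifiers. Start regions are RefSeq's, on GRCm38.p6. Alternatives were cyclic loess, array medians, quantile normalization, a mean filter of 3, all probe sets, fits of the 2 groups compared, array weights, trended robust eBayes, omission of single arrays and exact permutation. Subtraction of the negative controls' mean was chosen after seeing the data.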

Additional observations from a re-analysis of the deposited data

Results flagged for a closer look

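In 3 of the 20 groups of 4 arrays examined for the 5 named members, the lowest array stood far from the others, measured as its gap to the nearest array over the group's range, and passed Dixon's criterion for 4 values. Chance passes about 1 in 20 such groups. Snhg11 had this in sham PparaΔHep (0.938, array 4 at 3.23) and in PHx fl/fl (0.919, array 3 at 2.52). Snhg6 had it in sham PparaΔHep (0.872, array 1 at 2.67).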

How the results depend on the processing

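No paired analysis was possible because the arrays' numbers only follow sample order and the labels share none between groups. The alternative of another probe set per member gave nothing, since each has 1, and fitting only the 2 groups compared gave no value for the comparisons that use all 4. The causes of the changes below were not tested. Genes called after PHx in fl/fl, 9868 on the deposited values, were 15420 with array medians subtracted, 15400 with quantile normalization, 16582 with negative controls subtracted, 5962 among genes with a mean of at least 3, where fewer genes were tested, and 18600 over all probe sets, and 7711 to 10176 with 1 array left out. In PparaΔHep, 9734 became 15350, 5888 and 18600 with array medians subtracted, the mean filter and all probe sets (7720 to 10099 with 1 array left out). Between genotypes after sham, 4 became 7 with negative controls subtracted, 2 with the filter, 1 over all probe sets, 38 with only the 2 groups compared and 24 with array weights, and 1 to 6 with 1 array left out, falling to 1 or 2 without sham fl/fl 1 or 3 or sham PparaΔHep 1, 2 or 4. After PHx, 43 became 0 with only the 2 groups compared, and 14 to 127 with 1 array left out, the highest without PHx fl/fl 3 and the lowest without PHx PparaΔHep 2. The mean genotype count of 66 became 100 with array weights and 35 (without sham PparaΔHep 1) to 120 (without PHx fl/fl 3), and the difference of PHx changes gave 0 to 2. The 2 members called after PHx in fl/fl became 0 with array medians subtracted, quantile normalization or all probe sets. They became 1 with array weights, 3 with cyclic loess, and 0 to 2 with 1 array left out. With negative controls subtracted the count stayed at 2, but not for the same genes. Neat1 was lost there (limma adjusted p = 0.0571) and Snhg6 entered with a fall (−0.18, adjusted p = 0.0426).

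Signs turned only for differences that had not passed. Malat1 in PparaΔHep after PHx was −0.11, −0.07 and −0.04 with array medians, quantile normalization and negative controls; its genotype difference after sham was −0.0012 with negative controls, and its mean genotype difference −0.01 with quantile normalization, −0.03 with negative controls and −0.02 to 0.03 with 1 array left out. Snhg6 after PHx was 0.01 in fl/fl with cyclic loess (−0.07 to 0.02 with 1 array left out) and −0.04 and −0.07 in PparaΔHep with array medians and quantile normalization, and its genotype difference after PHx was 0.01 with array weights and −0.05 to 0.08 with 1 array left out. With 1 array left out, the Neat1 genotype difference after PHx was −0.02 to 0.24 and that of Snhg5 after sham −0.10 to 0.04. Snhg11, Snhg5 and Snhg6 had low signal over the controls, and the effect of this on the size of their differences was not tested.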
